A study of Mus musculus with 2 samples.

Results

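The 10 genes described here code for proteins that bind tubulin or microtubules. They are the stathmins Stmn1, Stmn2 and Stmn3, the doublecortins Dcx and Dclk1, and the structural microtubule-associated proteins Map1b, Map2, Mapt, Map4 and Map6. They were chosen by gene symbol, and all 10 were found among the 32285 genes of the tables. Stathmins bind free tubulin dimers and favour the shortening of microtubules. Stmn1 is a cytosolic protein known from dividing and immature cells, while Stmn2 and Stmn3 are membrane-anchored and best known from growing axons. Doublecortin and its relative Dclk1, which joins a doublecortin region to a kinase, stabilise microtubules in migrating young neurons. Map1b, Map2 and Mapt (tau) bind along the microtubules of growing axons, dendrites and axons, Map4 does so in many non-neuronal cells, and Map6 makes microtubules resistant to cold.

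The counts came from droplet libraries (10x Genomics) of single cells from the cortex of mice at postnatal day 5, 1 library labelled Katnal2 WT and 1 labelled Katnal2 Mut. Katnal2 codes for a katanin-like protein of a family of microtubule-severing ATPases, and the labels name no other allele or agent. The altered part of Katnal2, the strain and the number of animals are not given. Both libraries were dissociated with trypsin and collagenase and sorted before capture, and both carry the same label of dissection followed by frozen storage. The submitters' design mentions 3 replicates, but all barcodes of a library carry 1 suffix, so each genotype is 1 library here. No test between genotypes was possible, and every interval below covers counting error only.

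After the barcode limits, 11024 WT and 10102 Mut barcodes remained, with medians of 6446 and 7625.5 UMIs (unique molecular identifiers, each standing for 1 captured RNA molecule). Median mitochondrial shares were 4.04% in the WT and 3.45% in the Mut library. The libraries shared 39 kept barcodes, 0.354% of the WT and 0.386% of the Mut barcodes. Katnal2 stood at 3.87 UMIs per 1000000 (95% interval 3.46 to 4.31) in the WT library and at 4.82 (4.37 to 5.30) in the Mut library. Because the altered part of the gene is not given, these levels check neither label. Both libraries held cells with female and with male transcripts, in different proportions.

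Classes were set per barcode from marker genes, none of which is one of the 10 genes. The largest were astroglia-like cells (5139 WT, 4803 Mut), oligodendrocyte precursor-like cells (1865 and 1721) and inhibitory neuron-like cells (1510 and 1045). Excitatory neuron-like cells were few, 35 WT and 33 Mut, and 25.7% and 24.2% of them lay within 5 percentage points of a limit of the rule. Cajal-Retzius-like cells numbered 52 and 45, and committed oligodendrocyte precursor-like cells 73 and 58. In all, 11 classes had at least 30 cells in both libraries. The class set by endothelial markers had 4 markers of other classes, haemoglobin and erythroid genes, and 2 of its own among its 10 leading genes, so its cells were not compared between the libraries. The committed precursor-like class had 3 of its own and 3 oligodendrocyte markers among its leading genes. A further 1046 WT and 885 Mut barcodes stayed unassigned. Levels are given as UMIs per 1000000 UMIs of the class (CPM), without correction for transcript length, so they are compared between classes and not between genes.

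Of the 10 genes, 6 had an entry among the RefSeq promoter sequences of build GRCm38.p6: Stmn3, Dcx, Dclk1, Map1b, Map2 and Map4. The 250 bases before the first listed start site are shown for 3 genes that take different courses in the oligodendrocyte lineage below: Stmn3 and Dcx, which were lower in committed precursors than in precursors, and Map1b, which was higher. All 3 lie on the minus strand: Stmn3 at chr2:181314501-181314750, Dcx at chrX:143933220-143933469 and Map1b at chr13:99516603-99516852. Each is written 5′ to 3′ on the strand of its gene, and capitals mark matches to the searched motifs CAGATG and CAGCTG (E-boxes), TATAAA and GGGCGG, on either strand.
Stmn3: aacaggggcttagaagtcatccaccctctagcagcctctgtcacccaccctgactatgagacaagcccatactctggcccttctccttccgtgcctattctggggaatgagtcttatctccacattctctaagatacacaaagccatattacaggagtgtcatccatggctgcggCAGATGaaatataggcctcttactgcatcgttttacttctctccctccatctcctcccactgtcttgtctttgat
Dcx: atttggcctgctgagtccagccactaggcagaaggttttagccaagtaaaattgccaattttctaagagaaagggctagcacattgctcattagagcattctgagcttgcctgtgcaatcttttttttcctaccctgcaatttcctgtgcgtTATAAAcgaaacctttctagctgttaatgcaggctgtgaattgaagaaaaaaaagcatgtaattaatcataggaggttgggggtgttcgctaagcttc
Map1b: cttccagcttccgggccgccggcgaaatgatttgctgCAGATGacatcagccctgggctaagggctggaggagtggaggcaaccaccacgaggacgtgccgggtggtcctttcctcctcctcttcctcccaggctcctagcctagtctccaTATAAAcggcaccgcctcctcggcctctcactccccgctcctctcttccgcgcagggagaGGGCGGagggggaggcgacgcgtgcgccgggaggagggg
The Stmn3 window held CAGATG 75 to 70 bases before the start, and that of Map1b held it 213 to 208 bases before. TATAAA stood 98 to 93 bases before the Dcx start and 99 to 94 bases before the Map1b start. Of the 3 windows shown, that of Map1b alone held GGGCGG, 39 to 34 bases before the start. The first windows of Map2 and Map4, which are not shown, held it too. Over all 32851 listed promoters, CAGATG was found in 14.4% of such windows, CAGCTG in 13%, TATAAA in 12.4% and GGGCGG in 32.7%. The G and C content was 48.8% for Stmn3, 41.6% for Dcx and 66.4% for Map1b. A match is only a run of letters, and no binding was measured.

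In the GENCODE annotation of GRCm38, Dcx is the only X-linked gene of the 10, at chrX:143855842-143933311. Stmn1 lies at chr4:134468320-134473843, Stmn2 at chr3:8509360-8561606, Stmn3 at chr2:181306459-181314500, Dclk1 at chr3:55242364-55539068 and Map1b at chr13:99421446-99516540. Map2 lies at chr1:66175273-66442583, Mapt at chr11:104231390-104332090, Map4 at chr9:109931460-110083955 and Map6 at chr7:99267447-99337137. Stmn2, Stmn3 and Dcx overlap no other annotated gene. Mapt overlaps 3 genes, all on the other strand, and Dclk1 overlaps 6, among them the protein-coding Gm21954 on the other strand. Map2 and Map4 each overlap an antisense gene too, so the counts of these genes could hold reads of their neighbours if strand was not used. Stmn1, Dclk1, Map1b, Map2, Map4 and Map6 overlap genes on their own strand, from which strand does not part them.

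Most of the 10 genes were higher in neurons than in astroglia. Between inhibitory neuron-like and astroglia-like cells, 7 of the 10 were at least 2-fold higher in the neurons in both libraries, where 15.8% of all 12956 genes were. The 7 were Stmn1, Stmn2, Stmn3, Dcx, Map1b, Map2 and Mapt. Dclk1 was the 1 gene at least 2-fold lower, where 22.1% of all genes were. The median log2 ratio was 2.36 over the 10 genes and 0.05 over all genes.

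**Figure D1:**
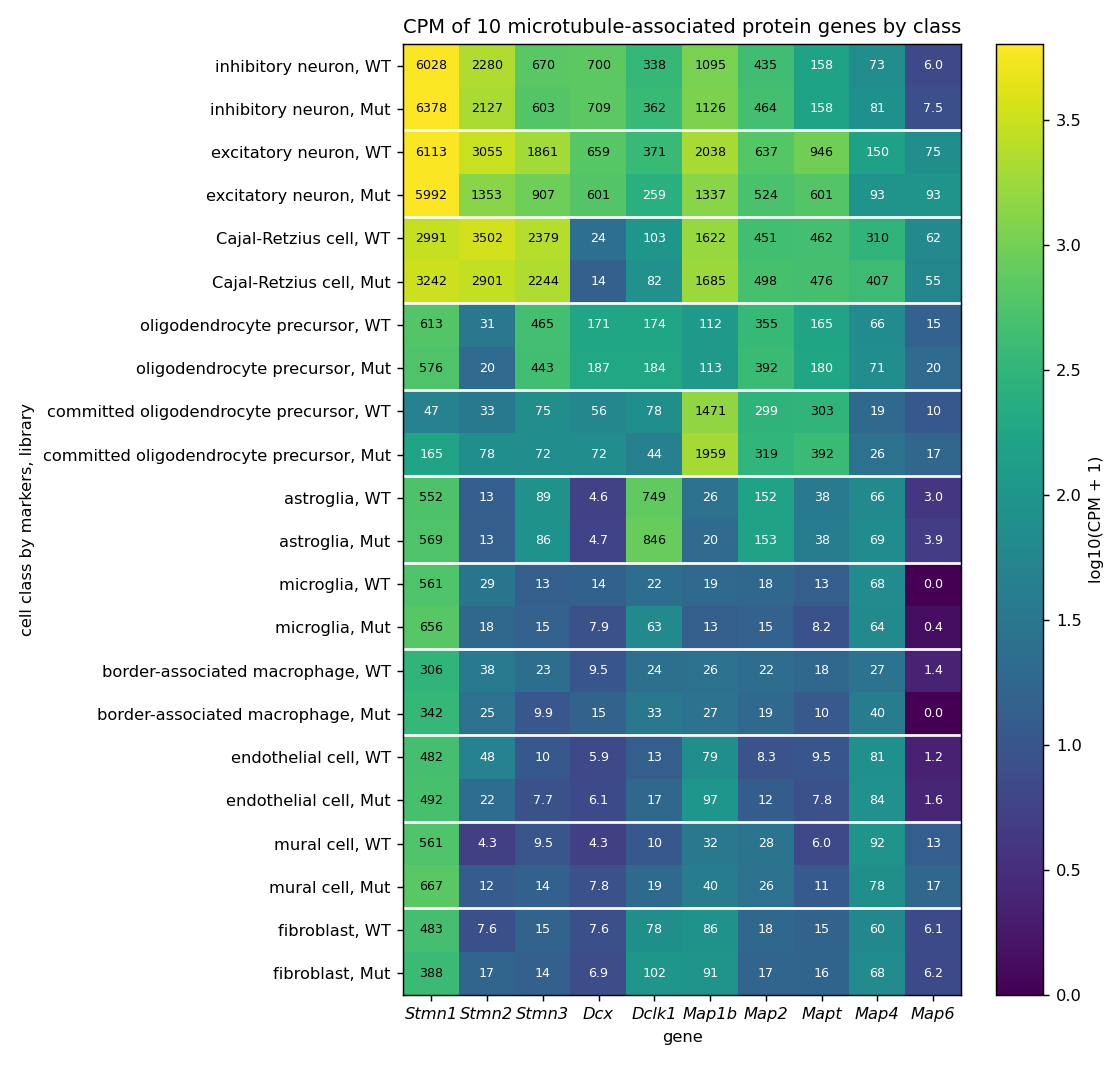
Levels of the 10 genes (columns) in 11 marker classes and 2 libraries (rows), as CPM printed in each cell, with colour on a log10 scale. Neuron rows are high for Stmn1, Stmn2, Stmn3 and Map1b, astroglia rows are high for Dclk1, and Map1b is also high in committed oligodendrocyte precursor rows.

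Among the stathmins, Stmn1 had UMIs in nearly every inhibitory neuron-like cell. Its level there was 6028 CPM in the WT and 6378 in the Mut library. Excitatory neuron-like cells stood at 6113 and 5992, a range that overlapped that of the inhibitory cells. Cajal-Retzius-like cells, the early-born Reln-expressing neurons of the surface of the cortex, followed at 2991 and 3242. Next came mural, microglia-like, oligodendrocyte precursor-like and astroglia-like cells between 552 and 667. The committed oligodendrocyte precursor-like class was last, at 47.5 and 165. Free RNA held Stmn1 at 1260 in the WT and 1256 in the Mut library, above each of these non-neuronal classes as a whole. Over astroglia-like cells, the neuron level was 10.9-fold higher (10.7 to 11.1) in the WT and 11.2-fold (11 to 11.4) in the Mut library.

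Stmn2 separated neurons from every other class. Cajal-Retzius-like cells had 3502 WT and 2901 Mut CPM, excitatory neuron-like cells 3055 and 1353, and inhibitory neuron-like cells 2280 and 2127. These 3 neuron classes overlapped in range, except that Cajal-Retzius-like cells lay above the inhibitory ones. The 8 other classes lay between 4.30 and 78.4. Free RNA, measured in barcodes of 10 to 100 UMIs, held Stmn2 at 417 in the WT and 364 in the Mut library, so all these non-neuronal levels were below that of free RNA. Inhibitory neurons exceeded astroglia-like cells 182-fold (167 to 198) in the WT and 162-fold (150 to 176) in the Mut library.

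Stmn3 had a second, glial place of expression. Its order began with Cajal-Retzius-like cells at 2379 and 2244, excitatory neuron-like cells at 1861 and 907 and inhibitory neuron-like cells at 670 and 603. Oligodendrocyte precursor-like cells came next at 465 WT and 443 Mut, above free RNA at 278 and 243. Astroglia-like cells had 89.5 and 85.7, and each of these neighbouring classes was apart from the next in both libraries. A UMI of Stmn3 was found in 90.9% and 90.5% of precursors against 43.6% and 46.8% of astroglia, at median depths of 5670 and 6024 UMIs against 8079 and 9427. After thinning each cell to 1000 UMIs the shares were 37.0% and 36.5% against 8.09% and 7.95%.

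Dcx, the marker used most for newborn neurons, was also found in oligodendrocyte precursors. Inhibitory neuron-like cells had 700.4 CPM in the WT and 709.3 in the Mut library, and excitatory neuron-like cells 659 and 601. Oligodendrocyte precursor-like cells had 171 (163 to 179) and 187 (179 to 195), and astroglia-like cells 4.61 and 4.74. A Dcx UMI was present in 59.6% of WT and 63.6% of Mut precursors, against 2.20% and 2.56% of astroglia, which are the more deeply sequenced cells. Thinned to 1000 UMIs, the shares were 16.7% (15.1 to 18.5) and 17.8% (16 to 19.7) against 0.428% and 0.521%. Among the 10 genes, Stmn2 was the one lowest against free RNA in these precursors, at 7.49% and 5.63% of its free level. At those shares free RNA would supply at most 9.55 of the 171 and 6.02 of the 187 Dcx CPM. Cajal-Retzius-like cells went the other way from the other neurons, with 23.5 and 13.7 CPM from 13 and 5 UMIs in all.

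Dclk1 had its highest level in astroglia-like cells, 749 WT and 846 Mut CPM. A Dclk1 UMI was found in 94.1% and 95.5% of these cells. Inhibitory neuron-like cells had 338 and 362 and excitatory neuron-like cells 371 and 259, which overlap. The neuron to astroglia ratio was 0.451 (0.432 to 0.470) in the WT and 0.428 (0.409 to 0.447) in the Mut library. Oligodendrocyte precursor-like cells had 174 and 184, below free RNA at 318 and 329. By the measure used for Dcx above, free RNA would supply at most 23.8 and 18.5 CPM of these precursor levels. The lowest levels were in the endothelial marker class at 13 and 17.4 and in mural-like cells at 10.3 and 18.6. So both doublecortin genes were detected in precursors and neurons, and astroglia-like cells held one at a high and the other at a near-zero level.

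Map1b was high in neurons and in the later classes of the oligodendrocyte lineage. The 24 WT and 21 Mut oligodendrocyte-like cells, too few for the order of classes, had 2354 and 3790 CPM, above each neuron class of the same library. Committed oligodendrocyte precursor-like cells had 1471 and 1959 CPM, excitatory neuron-like cells 2038 and 1337, Cajal-Retzius-like cells 1622 and 1685 and inhibitory neuron-like cells 1095 and 1126. The ranges of committed precursor-like, excitatory neuron-like and Cajal-Retzius-like cells overlapped. In excitatory neuron-like cells 1 cell held 32.8% of the WT and 38.8% of the Mut Map1b UMIs. Without that cell of each library the level was 1592 and 917, in the Mut library below inhibitory neuron-like cells. Oligodendrocyte precursor-like cells had only 112 and 113, and astroglia-like cells 26.0 and 20.1, so inhibitory neurons stood 42.1-fold (39.6 to 44.9) and 55.9-fold (52.2 to 59.9) above astroglia.

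Map2 and Mapt reached into the oligodendrocyte lineage. Map2 ran from 637 and 524 in excitatory neuron-like cells through 435 and 464 in inhibitory neuron-like and 355 and 392 in oligodendrocyte precursor-like cells to 152 and 153 in astroglia-like cells. Mapt was highest in excitatory neuron-like cells at 946 and 601, then in Cajal-Retzius-like cells at 462 and 476. In excitatory neuron-like cells the cell with most Mapt UMIs held 23.4% of the WT and 32.8% of the Mut sum. Without the top cell of each class and library, excitatory neuron-like cells had 842 and 449 and Cajal-Retzius-like cells 445 and 460. In the Mut library this order thus rests on the top excitatory cell. Committed precursor-like cells followed with 303 and 392 Mapt CPM, ahead of oligodendrocyte precursor-like cells at 165 and 180. Inhibitory neuron-like cells as a whole had 158 in both libraries, below the precursors, though by little in the WT library. Among non-dividing cells the order was the reverse, with 276 and 295 in inhibitory neuron-like cells and 172 and 202 in precursors. The 10 WT and 10 Mut non-dividing inhibitory cells with an Lhx6 UMI and at least 2 other cortical interneuron markers had 721 and 770, from 42 and 47 UMIs.

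Map4, the ubiquitous member, varied least, with the highest class mean 16.2 times the lowest. Cajal-Retzius-like cells led at 310 and 407, and the committed precursor-like class was lowest at 18.7 and 25.6. Map6 was sparse: excitatory neuron-like cells had 75.1 and 93.3 CPM from 17 and 18 UMIs, and Cajal-Retzius-like cells 61.6 and 55.0. Oligodendrocyte precursor-like cells had 14.8 and 20.1. Mural-like cells had 12.9 and 17.1 from 15 and 22 UMIs, and committed precursor-like cells 10.1 and 17.0 from 7 and 10 UMIs. All of these lay above free RNA at 8.65 and 10.1. Inhibitory neuron-like cells, at 6.03 and 7.51, lay below it. No Map6 UMI was found in WT microglia-like cells, which allows a level of up to 1.03 CPM, and none in Mut border-associated macrophage-like cells, which allows 1.56. Over astroglia, the inhibitory neuron level was 2.02-fold for Map6 in the WT and 1.93-fold in the Mut library, which is why it was not counted above, and 1.12-fold and 1.17-fold for Map4.

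The ependymal-like cells, whose planar organisation the study's title concerns, numbered only 11 WT and 17 Mut. They had Stmn1 at 379 and 517, Map1b at 255 and 297, Map2 at 175 and 184 and Dclk1 at 175 and 144 CPM. Dcx stood at 0 and 8.99 and Mapt at 7.29 and 8.99, and the 0 allows up to 21.9 CPM.

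Pathway genes outside the 10 showed a less one-sided split. Of 80 genes in 4 lists (other stathmins and doublecortins, other structural proteins, end-binding proteins, kinases and phosphatase subunits), 71 could be measured in both inhibitory neuron-like and astroglia-like cells. Of these, 21 were at least 2-fold higher in the neurons and 10 at least 2-fold lower in both libraries. Over all genes, 15.8% were higher and 22.1% lower by that measure. The 3 highest were the stathmin Stmn4 (40.6-fold), the Cdk5 activator Cdk5r1 (27.6-fold) and the collapsin response mediator Crmp1 (23.1-fold). The 3 lowest were the phosphatase subunit Ppp2r2b (0.0767), Nav2 (0.337) and Tacc1 (0.411), these ratios being means over both libraries on the scale of CPM plus 5.

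Division set the stathmins apart from one another. Cells with UMIs of at least 3 of 10 cycling genes were called dividing and those with none non-dividing. None of the genes described here is among the cycling genes. In astroglia-like cells Stmn1 stood at 1280 CPM in dividing and 184 in non-dividing WT cells, and at 1346 and 192 in Mut cells. The ratio was 6.97 (6.73 to 7.23) in the WT and 7.0 (6.76 to 7.26) in the Mut library. Stmn1 was the 1 gene of 10 at least 1.5-fold higher in dividing astroglia-like cells in both libraries, where 10.1% of all genes were. In the other direction 0 of 10 were lower in both, where 7.08% of all genes were. Mapt was past that fold in the WT library only, at 26.7 in dividing and 44.3 in non-dividing cells, against 29.2 and 43.3 in the Mut library. These Mapt levels were below free RNA at 79.7 and 90.3. A Stmn1 UMI was found in 98.0% and 98.8% of dividing against 58.2% and 66.0% of non-dividing cells. Thinned to 1000 UMIs, these shares were 66.2% and 66.3% against 16.4% and 17.2%.

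Oligodendrocyte precursor-like cells gave the same picture for Stmn1. Dividing precursors had 1239 WT and 1241 Mut CPM and non-dividing ones 211 and 191, ratios of 5.86 (5.48 to 6.27) and 6.49 (6.05 to 6.97). Again Stmn1 was the 1 of 10 that was higher, where 8.19% of all genes were, and 0 of 10 were lower, where 4.16% were. The other 9 genes stayed within 1.5-fold in at least 1 library. Dcx, for one, stood at 136 and 150 in dividing and 193 and 202 in non-dividing precursors, ratios of 0.708 (0.637 to 0.786) and 0.743 (0.668 to 0.826). Among the pathway genes, the spindle proteins Prc1 (60.6-fold), Tpx2 (40.6-fold) and Kif2c (20.3-fold) were the 3 highest in dividing precursors.

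Inhibitory neuron-like cells held the reverse arrangement. The markers of this class were not chosen to part neurons from dividing precursors, so the cells compared may differ in more than division. Stmn1 hardly differed by division, with 6313 against 5925 CPM in the WT and 6666 against 6194 in the Mut library, ratios of 1.07 and 1.08. None of 9 measured genes was at least 1.5-fold higher in dividing cells, where 13.8% of all genes were. In turn 6 of 9 were at least 1.5-fold lower in both libraries, where 11.9% of all genes were. Mapt was furthest apart, at 53.6 in dividing and 276 in non-dividing WT cells and at 57.3 and 295 in Mut cells, ratios of 0.194 (0.163 to 0.230) and 0.195 (0.162 to 0.233). Stmn2 had ratios of 0.324 and 0.345, Dcx 0.434 and 0.473, and Stmn3 0.485 and 0.528. Map1b had 0.529 and 0.470 and Dclk1 0.535 and 0.525. Map2, at 0.722 and 0.698, and Map4, at 0.937 and 0.981, were not past that fold, and Map6 had too few UMIs to be counted.

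**Figure D2:**
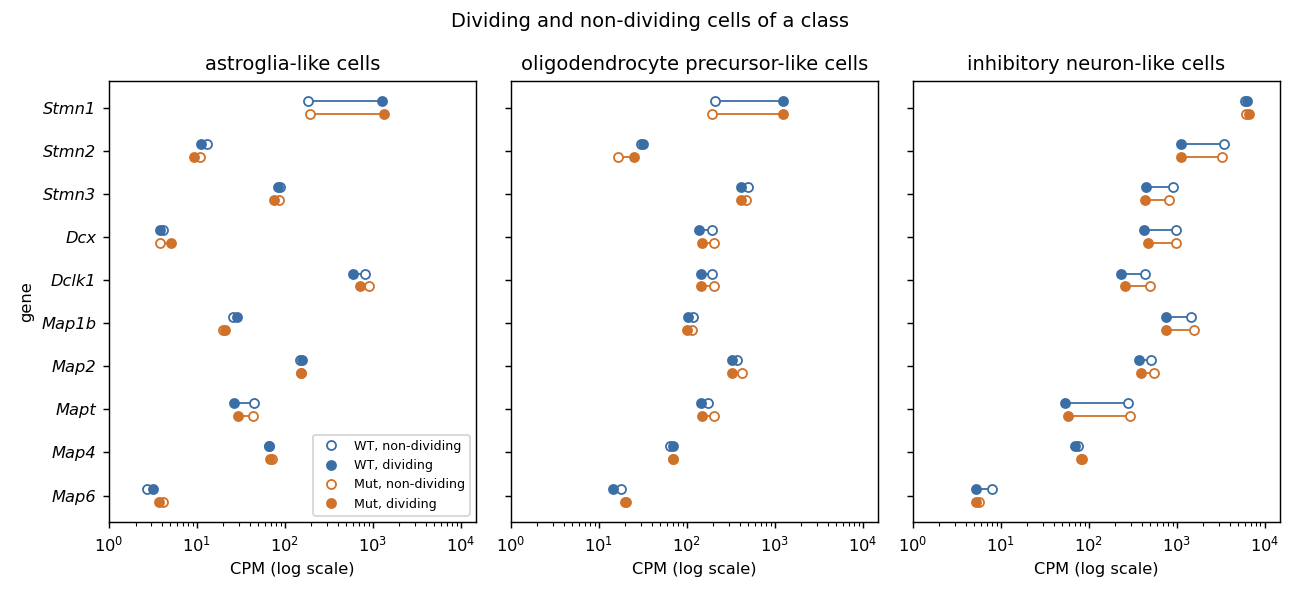
Level of each gene (rows) in dividing (filled points) and non-dividing (open points) cells of 3 classes, as CPM on a log axis, WT in blue and Mut in orange. Stmn1 lies far apart in both glial classes and together in inhibitory neuron-like cells. In that class Stmn2, Stmn3, Dcx, Dclk1, Map1b and Mapt are lower in dividing cells.

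Most of the 861 WT and 515 Mut non-dividing inhibitory cells had a UMI of Sp8, a transcription factor of late-born interneurons. The 522 WT and 345 Mut non-dividing inhibitory cells with an Sp8 UMI, no Lhx6 UMI and fewer than 3 striatal-type markers had Stmn1 at 5706 and 6017 and Dcx at 991 and 1012 CPM. Mapt in them was 210 and 237. Of the other pathway genes, 7 of 60 measured were higher and 20 lower in dividing inhibitory neuron-like cells. Over all genes, these shares were 13.8% and 11.9%. Stmn4 (0.256), Nav3 (0.262) and Slain1 (0.369) were lowest and the spindle proteins Prc1 (58.5-fold) and Tpx2 (53.0-fold) highest.

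Along the oligodendrocyte lineage the genes exchanged places. From oligodendrocyte precursor-like to committed precursor-like cells, 2 of 10 genes were at least 1.5-fold higher in both libraries, where 7.6% of all 11121 genes were. In the other direction 5 of 10 were at least 1.5-fold lower, where 29.7% of all genes were, a share that makes lower levels common in this comparison. Map1b and Mapt were higher, and Stmn1, Stmn3, Dcx, Dclk1 and Map4 were lower. The median log2 ratio was -0.86 over the 10 genes and -0.26 over all genes.

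Map1b differed most. Precursors had 112 (106 to 118) WT and 113 (107 to 119) Mut CPM, committed precursors 1471 (1383 to 1564) and 1959 (1847 to 2076), and oligodendrocyte-like cells 2354 (2188 to 2531) and 3790 (3565 to 4025). The step from precursors to committed precursors was 13.1-fold (12.1 to 14.3) and 17.3-fold (16 to 18.8). A Map1b UMI was present in 72 of 73 WT and 58 of 58 Mut committed precursor-like cells, and in all 24 and 21 oligodendrocyte-like cells, so the level did not rest on a few cells. The cell with most Map1b UMIs held 4.79% of the WT and 6.26% of the Mut sum in committed precursors. In oligodendrocyte precursors 39.1% and 40.9% of cells had such a UMI.

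Mapt took the same direction with a smaller step. It stood at 165 and 180 in precursors, at 303 and 392 in committed precursors and at 290 and 415 in oligodendrocyte-like cells. The first step was 1.84-fold (1.59 to 2.13) in the WT and 2.18-fold (1.89 to 2.50) in the Mut library, and the next step was 0.957 (0.740 to 1.23) and 1.06 (0.841 to 1.33). Map2 was slightly lower in committed precursors, at 299 and 319 against 355 and 392, ratios of 0.842 (0.729 to 0.968) and 0.812 (0.698 to 0.941), and stood at 332 and 330 in oligodendrocyte-like cells. These 3 are the proteins that line axons and dendrites in neurons, and in this lineage 2 of them were higher after commitment.

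Stmn3, Dcx, Dclk1 and Map4 were lower after commitment in both libraries. Stmn3 went from 465 and 443 to 74.8 and 71.5, ratios of 0.161 (0.120 to 0.211) and 0.162 (0.116 to 0.219). Dcx went from 171 and 187 to 56.1 and 71.5, ratios of 0.328 (0.233 to 0.45) and 0.383 (0.275 to 0.520). Dclk1 had ratios of 0.447 (0.334 to 0.585) and 0.241 (0.157 to 0.354), and Map4 of 0.281 and 0.359. The WT and Mut intervals overlapped for each of these 4 genes. For Stmn1 the ratio was 0.0774 (0.0533 to 0.109) in the WT and 0.287 (0.232 to 0.351) in the Mut library. No committed precursor-like cell was called dividing, against 504 WT and 421 Mut precursors. Against non-dividing precursors at 211 and 191, non-dividing committed precursors had Stmn1 at 49.3 and 209 CPM, a lower level in the WT library and a level no lower in the Mut library. In the Mut library 19 of 58 cells had the 97 Stmn1 UMIs. Of these UMIs 27.8% came from 1 cell, without which all Mut committed precursors had 123. Mut committed precursors outside the non-dividing ones held only 4 of the UMIs, so that cell was a non-dividing one. The Mut level of 209 thus rests in part on 1 cell, and the non-dividing level without it was not computed.

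**Figure D3:**
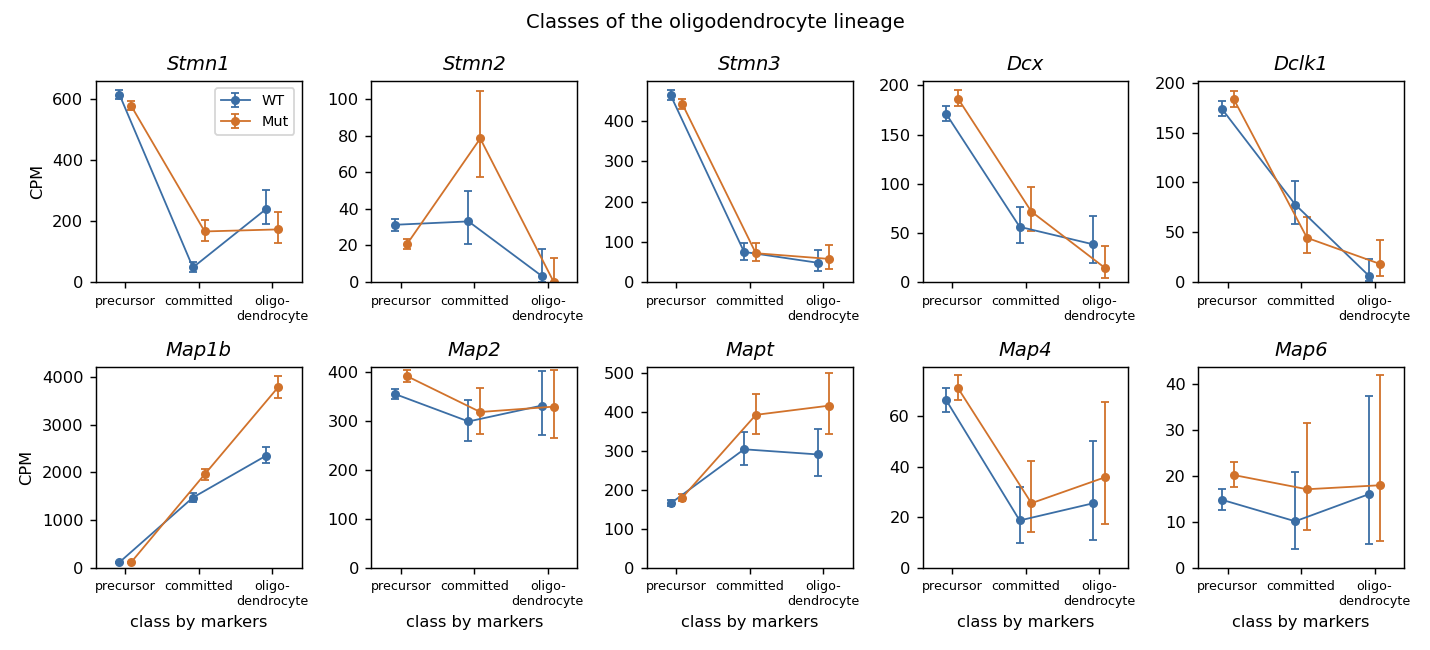
Level of each gene in the 3 classes of the oligodendrocyte lineage, as CPM with 95% Poisson intervals of counting error, WT in blue and Mut in orange; the vertical axes start at 0 and differ between panels. Map1b climbs from 112 and 113 to 2354 and 3790, Mapt is higher after the first class, and Stmn3, Dcx and Dclk1 are lower.

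Stmn2 was not lower, with ratios of 1.06 (0.663 to 1.61) in the WT and 3.82 (2.72 to 5.27) in the Mut library. It was carried by single cells in committed precursors, with 23 UMIs in 4 WT and 46 UMIs in 4 Mut cells, of which 87.0% and 47.8% came from 1 cell each. Among the pathway genes, 7 of 70 measured were higher and 25 lower in committed precursors. Over all genes, 7.6% were higher and 29.7% lower. Map6d1 (5.63-fold), the minus-end binding protein Camsap2 (5.03-fold) and the structural protein Map1a (4.20-fold), a relative of Map1b, were the 3 highest. The spindle proteins Prc1 (0.0383) and Tpx2 (0.0759) and the centrosomal Tacc2 (0.0769) were the 3 lowest.

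Between the Mut and the WT library, most of the 10 genes stayed within the fold used here in the 3 large classes. In inhibitory neuron-like cells 0 of 10 genes had a ratio of at most 0.8 or at least its inverse, where 18.9% of all 10388 genes did. Stmn1 had 6028 WT and 6378 Mut CPM, a ratio of 1.06 (1.04 to 1.07). Stmn3 had 670 and 603, a ratio of 0.900 (0.860 to 0.940). Dcx had a ratio of 1.01 (0.971 to 1.06) and Mapt of 1.0 (0.915 to 1.09). The lowest of the 10 ratios was that of Stmn3 and the highest that of Map6, which rests on 42 UMIs in each library. The median log2 ratio was 0.06 over the 10 genes and 0.07 over all genes.

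In astroglia-like cells 2 of 10 genes were past that fold, where 12% of all genes were. Map1b stood at 26.0 CPM in the WT and 20.1 in the Mut library, a ratio of 0.775 (0.710 to 0.845). Map6 stood at 2.98 and 3.89, a ratio of 1.30 (1.04 to 1.65), and after thinning to 1000 UMIs its log2 ratio turned to -0.0325. Both are below free RNA, which held Map1b at 194 and 214 and Map6 at 8.65 and 10.1. Map1b is also far below its levels in neurons. Map6 in inhibitory neuron-like cells was itself low, at 6.03 and 7.51, and also below free RNA. Dclk1, the gene highest in this class, had 749 and 846, a ratio of 1.13 (1.11 to 1.15). The median log2 ratio was 0.03 over the 10 genes and over all genes.

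In oligodendrocyte precursor-like cells 2 of 10 genes were past the fold, where 11.5% of all genes were. Map6 stood at 14.8 WT and 20.1 Mut CPM, a ratio of 1.36 (1.11 to 1.68). In male cells its log2 ratio was -0.0675, against 0.63 in female cells, and after thinning to 1000 UMIs it was no longer past the fold. Stmn2 stood at 31.2 and 20.5, a ratio of 0.656 (0.553 to 0.777), with levels at 7.49% and 5.63% of those in free RNA. With the highest Scrublet scores left out, Stmn2 turned to a log2 ratio of 0.16. Dcx had 171 and 187, a ratio of 1.09 (1.03 to 1.16).

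**Figure D4:**
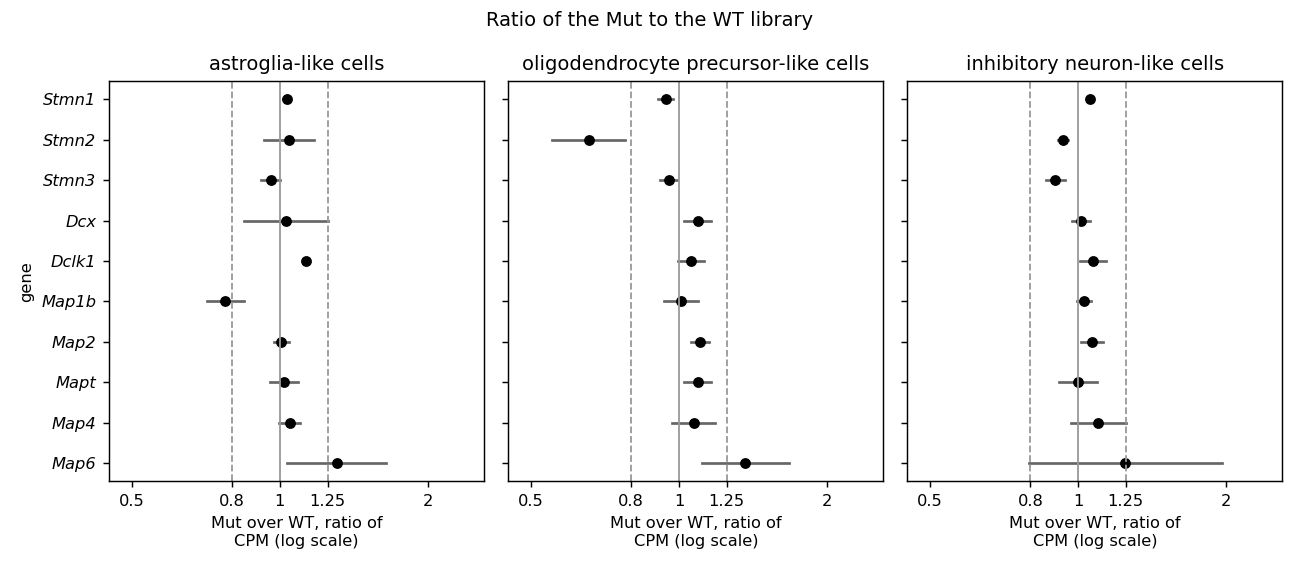
Ratio of Mut to WT level of each gene in the 3 largest classes on a log axis, with 95% intervals of counting error; the dashed lines mark 0.8 and its inverse. In inhibitory neurons all points lie between the dashed lines or on one, while Map1b and Map6 in astroglia and Stmn2 and Map6 in precursors lie outside.

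Over the 8 classes compared, 20 of 61 pairs of gene and class were past the fold, where 21.7% of all pairs were. Committed precursor-like cells had 6 of these among 8 measured genes, where 31.6% of all genes in that class were. Microglia-like cells had 5 among 9, where 28.3% of all genes were. In committed precursors Stmn1 had 33 WT and 97 Mut UMIs, a ratio of 3.48 (2.32 to 5.34), with 30.3% and 27.8% of the UMIs in 1 cell each. In male cells this difference turned, to a log2 ratio of -0.35. Map1b had 1023 and 1150 UMIs, a ratio of 1.33 (1.22 to 1.45). In the 24 and 21 oligodendrocyte-like cells Map1b had 738 and 1058 UMIs and a ratio of 1.61 (1.46 to 1.77). Map1b was thus higher in the Mut library in both late classes and at a ratio of 1.01 (0.934 to 1.09) in precursors. In non-dividing committed precursors the ratio was 1.41 (1.28 to 1.55). In the other 14 WT and 15 Mut committed precursors it was 1.08 (0.899 to 1.30). Of the oligodendrocyte-like cells, 8 were female and 13 male in the WT library, against 18 and 2 in the Mut library. A part of sex or stage in these ratios was not tested. Without its top cell, Map1b in oligodendrocyte-like cells stood at 2340 WT and 3388 Mut CPM.

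Microglia-like cells had Dclk1 at 22.3 CPM in the WT and 62.5 in the Mut library, a ratio of 2.80 (2.09 to 3.79). The UMIs lay in 31 of 456 WT and 30 of 356 Mut cells, and both levels were under the 318 and 329 of free RNA. On the scale of CPM plus 5 the log2 ratio was 1.30. With the highest Scrublet scores left out it was 0.20, and in female cells it was -0.18. Among the few excitatory neuron-like cells, Stmn2 stood at 3055 and 1353, a ratio of 0.443 (0.383 to 0.511), and Stmn3 at 1861 and 907, a ratio of 0.487 (0.406 to 0.583). Leaving out the top cell of each library gave 2553 and 859 for Stmn2 and 1473 and 714 for Stmn3. The part of which cells fell into this small class was not tested.

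Of the 80 listed pathway genes, 5 of 74 measured in astroglia-like cells were past the same fold and higher in Mut and 2 lower, where 7.73% and 4.32% of all genes were. In oligodendrocyte precursor-like cells 7 of 73 were higher and 1 lower, where 7.66% and 3.83% of all genes were. In inhibitory neuron-like cells 5 of 65 were higher and 1 lower, where 14.6% and 4.37% of all genes were. The median log2 ratio of the pathway genes in these neurons was 0.12, and it was 0.07 over all genes. In the neurons Camsap2 (1.35), the dynein regulator Ndel1 (1.31) and Ppp2r5b (1.28) were highest, and Eml1 (0.665), Map1lc3a (0.878) and Map10 (0.891) lowest.

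Likeness was measured as Pearson r of log2(CPM + 5) over 18 sums, 9 classes in 2 libraries, among 7336 genes. It is a description, since the sums of a class share their cells' depth and make-up. The 9 classes had at least 50 cells in both libraries, which left out excitatory neuron-like and Cajal-Retzius-like cells. Inhibitory neuron-like cells were thus the only neurons in it, and likeness across the neuron classes was not measured. Among the 10 genes, Map2 and Mapt were the most alike pair (r = 0.93), followed by Stmn3 and Map2 (0.93) and Stmn3 and Dcx (0.88). Map4 had the lowest values, down to -0.41 with Mapt. Stmn1 was nearest to the genes Cdca7 (0.94), Gins1 (0.92) and Hat1 (0.92), of which Gins1 is a DNA replication factor. Stmn2 was nearest to Dlx6os1 (0.97), Dlx5 (0.97) and Islr2 (0.97), the first 2 being markers used to set the inhibitory class. Dcx was nearest to Adarb2 (0.97), Dclk1 to Mras (0.97), Map1b to Arid4b (0.96), Map2 to Scg5 (0.98) and Mapt to Bcat1 (0.99). Stmn3 was nearest to Gdap1l1 (0.98), Map6 to G0s2 (0.94) and Map4 to Nsmce4a (0.90), the weakest of these first neighbours.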

How the data were processed

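Per the file headers, the matrices hold whole-number UMI counts per gene and barcode, written by Cell Ranger 4, for 1957831 WT and 1974760 Mut barcodes. The submitters' processing notes name STAR and the genome build GRCm38. What annotation release and strand setting were used is not given in the sources used here. As deposited, the counts were not scaled or corrected by the authors, as far as the files show.

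Barcodes were kept from 1000 UMIs and 500 genes upward, if no more than 20% of their UMIs were mitochondrial. A barcode was put in the class of which at least 30% of the markers had a UMI, with a lead of at least 15 percentage points over the next class, and otherwise was left unassigned. The 3 classes of the oligodendrocyte lineage were told apart among themselves by the same lead, and a cell with at least 50% of the oligodendrocyte markers was an oligodendrocyte. None of the 10 genes was a marker. The limits of this rule were settled after several pairs of limits had been tried and the class sizes looked at, and the staging of the lineage was added because its first form left no oligodendrocytes. The split by cycling genes, the fold of 1.5 for the lineage and the rules for Lhx6 and Sp8 neurons were also set after the data were seen. Members, marker lists and pathway lists were chosen with earlier results of these data known.

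UMIs were summed per class and library and scaled to 1000000 UMIs of the class (CPM). With 1 library per genotype no test was run. Levels have exact Poisson intervals and ratios exact conditional binomial intervals, both at 95%, covering counting error only. Log2 ratios were taken on the scale of CPM plus 5, so at low levels they lie nearer to no change than the plain ratios. Shares of cells have exact Clopper-Pearson intervals, and a count of 0 was given a limit of 3 counts. Genes entered a count of ratios with at least 50 UMIs over both groups. Free RNA was summed over barcodes of 10 to 100 UMIs. Doublets were not removed; leaving out the 972 WT and 816 Mut barcodes with the highest Scrublet scores was an alternative. The ratio code was tested on simulated counts. All 10 genes are named; of 80 genes in 4 pathway lists, the 3 highest and 3 lowest per comparison could be named, and per gene the 3 most alike by Pearson r of log2(CPM + 5). Python 3.11.15, numpy 2.4.6, scipy 1.17.1, scanpy 1.11.5 and leidenalg 0.10.2 were used.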

Additional observations from a re-analysis of the deposited data

Results flagged for a closer look

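Cells were split into female cells, with a UMI of Xist and none of 4 Y-linked genes, and male cells, with the reverse, and the ratio of Mut to WT was taken in each. For 4 pairs of gene and class the ratio lay on opposite sides of 1 with neither counting interval reaching 1. The difference between the sexes was not tested, since each library is 1 sample and the number of animals of each sex is not given.

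Stmn1 in astroglia-like cells had a ratio of 0.919 (0.896 to 0.943) in female and 1.14 (1.11 to 1.18) in male cells. In inhibitory neuron-like cells it had 0.899 (0.879 to 0.920) in female and 1.18 (1.15 to 1.21) in male cells, the same order as in astroglia. Stmn2 in astroglia-like cells, at 9.27 to 17.4 CPM and below free RNA, had 0.724 (0.60 to 0.875) in female and 1.82 (1.49 to 2.23) in male cells. Map1b in oligodendrocyte precursor-like cells took the opposite order, with 1.26 (1.11 to 1.42) in female and 0.817 (0.710 to 0.938) in male cells.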

How the results depend on the processing

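Ratios of dividing to non-dividing and of committed to other precursors kept their direction for the genes followed, with no reversal. Of 95 single ratios followed, none moved beyond its counting interval with at least 2000 UMIs per barcode, with at most 10% mitochondrial UMIs, or with barcodes found in both libraries left out, the last chosen after seeing the data. With the highest Scrublet scores left out 12 moved and 5 reversed, with Leiden clusters 23 and 1, with the mean of per-cell values 18 and 2, with the stricter marker rule 11 and 1, with male cells 42 and 5, with female cells 37 and 2, and with cells thinned to 1000 UMIs 41 and 6. No paired analysis was possible because each genotype has 1 library.

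The count of gene and class pairs past the fold between Mut and WT, 20 as reported, was 11 without the highest Scrublet scores, 4 after thinning to 1000 UMIs, 11 in male cells, 7 with at least 200 UMIs per gene, 34 with no minimum and 9 at a fold of 1.5. In astroglia-like cells the 2 genes became 1 with the stricter marker rule, Leiden clusters, the mean of per-cell values or thinning, and 0 at a fold of 1.5. In oligodendrocyte precursor-like cells the 2 became 1 without the highest Scrublet scores, after thinning, in male cells and at a fold of 1.5, and 4 in female cells. In inhibitory neuron-like cells the 0 became 1 with the stricter marker rule, the mean of per-cell values and in male cells. Genes lower in dividing astroglia-like cells went from 0 to 1 with the stricter rule, Leiden clusters, the mean of per-cell values and female cells, and in precursors from 0 to 1 without the highest Scrublet scores. At a fold of 4, the gene lower in inhibitory neurons than in astroglia was lost (0). At a fold of 2 the genes lower in dividing inhibitory neuron-like cells were 3 in place of 6.

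Reversed log2 ratios of Mut to WT were as follows. Without the highest Scrublet scores, Stmn2 was 0.16 in oligodendrocyte precursor-like, 0.15 in microglia-like and 0.25 in border-associated macrophage-like cells, and in microglia-like cells Dcx was 0.22 and Map1b 0.15. With the stricter rule Dclk1 was -0.26 in border-associated macrophage-like cells. Map1b in mural-like cells was -0.19 with Leiden clusters, -0.16 with the mean of per-cell values, -0.54 after thinning and -1.16 in female cells. Map1b in microglia-like cells was 0.0194 with the mean of per-cell values and 1.69 after thinning. Thinning also gave -0.0325 for Map6 in astroglia-like cells, 0.43 for Stmn2 in microglia-like cells, and 0.49 for Stmn2 and -0.48 for Map4 in border-associated macrophage-like cells. Dclk1 in microglia-like cells was -0.18 in female cells. In male cells Map6 in oligodendrocyte precursor-like cells was -0.0675, Stmn2 in border-associated macrophage-like cells 0.10, and in committed precursor-like cells Stmn1 was -0.35, Stmn2 -3.69 and Dcx -0.67. The cause of these changes was not tested.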
